A study of Cicer arietinum with 24 samples.

Results

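Loci transcribed in the developing seeds but not in the leaves of chickpea (Cicer arietinum), and carrying no gene identifier of the genome annotation, were examined in the small-seeded cultivar Himchana 1. A locus was included when its deposited identifier started with XLOC (the name given by the Cufflinks programs to a transcribed locus), when its leaf value was under 1 FPKM and when the highest of its 7 seed values was at least 10 FPKM. FPKM is a count of sequenced fragments per kilobase of transcript, scaled to the mapped fragments of each library, so that long and short loci can be set side by side. In total, 450 loci met this rule, out of 7268 loci without a gene identifier and 35234 loci in all. They were then sorted by the seed stage with the highest value. Because these values chose and sorted the loci, the levels given here describe the set and are not a test of it.

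RNA sequencing was available for whole seeds of field-grown plants at 7 successive stages (S1 to S7) and for leaves taken while the seeds of the plants were in mid maturation, with 3 biological replicates for each of the 8 and 24 samples in all. No treatment or genetic change distinguished the samples, which all came from the one cultivar. The study names S1, S2 and S3 as early-, mid- and late-embryogenesis, S5 as mid-maturation and S7 as late-maturation, and S4 and S6 lie between these. A whole seed holds several tissues, and these are not the same at every stage, since in chickpea the endosperm is resorbed before S5. More cells of one kind and more RNA per cell therefore cannot be told apart. The deposited values give 1 FPKM value per locus for the 3 replicates together. No value therefore has a replicate error, no p-value was calculated, and each difference describes these 8 libraries only.

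A developing legume seed first forms its embryo by cell division, then fills the cotyledons with storage protein, starch and lipid, and at last dries out and becomes dormant. Each of these phases has its own transcripts, and many of the maturation transcripts are hardly present in leaves. A transcribed locus outside the annotation can be a protein-coding gene missed by gene prediction, a long non-coding RNA, a transposable element or an untranslated end of a nearby gene, and its expression value alone does not tell which. No sequence, coordinate or description of the 450 loci was used here, so that they are named by identifier only and no role is given for them.

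The 8 libraries had nearly equal upper quartiles over all loci (10.7 to 11.7 FPKM), whereas their sums ranged from 723136 FPKM at S2 to 2515731 FPKM at S7. Single marker genes of seed or leaf were not examined here. The stage labels were looked at through the lists of genes by biological process that the study made from gene ontology terms for the large-seeded cultivar JGK 3. The lists hold genes with differential methylation, differential expression or both between seed stages. Of 270 cell cycle genes with at least 1 FPKM in a seed library, 108 (40%) had their highest seed value at S1, and their median was 9.77 FPKM at S1 and 1.79 FPKM at S7. The other lists were less concentrated. Grain filling genes were highest at S5 in 32 of 143 cases, at S1 in 29 and at S7 in 27, desiccation genes at S7 in 30 of 138 cases, at S6 in 26 and at S5 in 25, and differentiation genes at S7 in 164 of 653 cases and at S1 in 137. Among the 8 libraries, the median was highest at S5 for grain filling genes (11.4 FPKM) and at S1 for differentiation genes (8.60 FPKM). For desiccation genes it was highest in leaf (20.6 FPKM), against 20.2 FPKM at S6 and 17.8 FPKM at S7. The shares of all annotated loci highest at each stage were not set beside these counts. Because many genes were listed for their differential expression between seed stages, the lists are a rough guide to the labels only.

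The rule was met by 6.19% of the loci without a gene identifier, and the same limits were met by 4.92% of the loci with 1 gene identifier (1294 of 26305), by 3.85% of the loci that join several gene identifiers (64 of 1661) and by 5.13% of all loci. This was so although a seed value of at least 10 FPKM was less common without an identifier, at 16.4% (1193 loci), than with one, at 44.1%. The remaining 743 loci of those 1193 had at least 1 FPKM in leaf. Among the 450 loci the median of the highest seed value was 27.9 FPKM, against 28.6 FPKM for the 1294 annotated loci within the same limits. At least 100 FPKM was reached by 84 of the 450 loci (18.7%), against 278 of the 1294 annotated loci (21.5%), and at least 1000 FPKM by 13 (2.89%), against 81 (6.26%). In leaf, 209 of the 450 loci (46.4%) were listed at 0, against 176 of the 1294 annotated loci (13.6%). An exact 0 can also be an estimate that failed, and such loci are only said to be listed at 0.

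The limits were close to some loci on either side. XLOC_026853, XLOC_018210 and XLOC_031386 were just within the seed limit, with highest values of 10.03, 10.04 and 10.09 FPKM. XLOC_014942, XLOC_014496 and XLOC_031131 were just outside it, with 9.99, 9.96 and 9.90 FPKM. Nearest to the leaf limit were XLOC_022696, XLOC_002272 and XLOC_034568, with 0.991, 0.990 and 0.984 FPKM in leaf. XLOC_000021, XLOC_026722 and XLOC_029600 were left out with leaf values of 1.01, 1.04 and 1.04 FPKM. Thus a member of the set and a locus beside it may differ very little.

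Of the 450 loci, 70 peaked at S1, 24 at S2, 114 at S3 (late-embryogenesis), 38 at S4, 92 at S5 (mid-maturation), 55 at S6 and 57 at S7. S3 therefore held the largest number of them, 25.3% of the set against 14.1% of the annotated loci within the same limits. At S1 the order was the other way, with 15.6% of the set against 24.2% of the annotated loci. The shares at S5 were 20.4% against 23.4%, and those at S2, S4, S6 and S7 differed by less than 3 percentage points. The S3 share also rests on loci that were listed above 0 only in the S3 library, of which there were 22. Without all loci seen in 1 library only, S3 still had the largest number, 92 of 398 loci.

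The height of the values also differed by stage. Among loci highest at S3 the median of the highest value was 39.4 FPKM in the set, against 24.2 FPKM in the annotated loci, and 29 loci of each reached 100 FPKM (of 114 and of 183). At S5 the medians were close, 34.1 FPKM in the set and 33.0 FPKM in the annotated loci. At S6 the set was much lower, with a median of 18.6 FPKM, against 102.6 FPKM in the annotated loci, and 12 of its 55 loci reached 100 FPKM, against 83 of 164. The set thus held few of the high loci of S6, although as large a share of it as of the annotated loci was highest at S6 (12.2% against 12.7%).

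**Figure D1:**
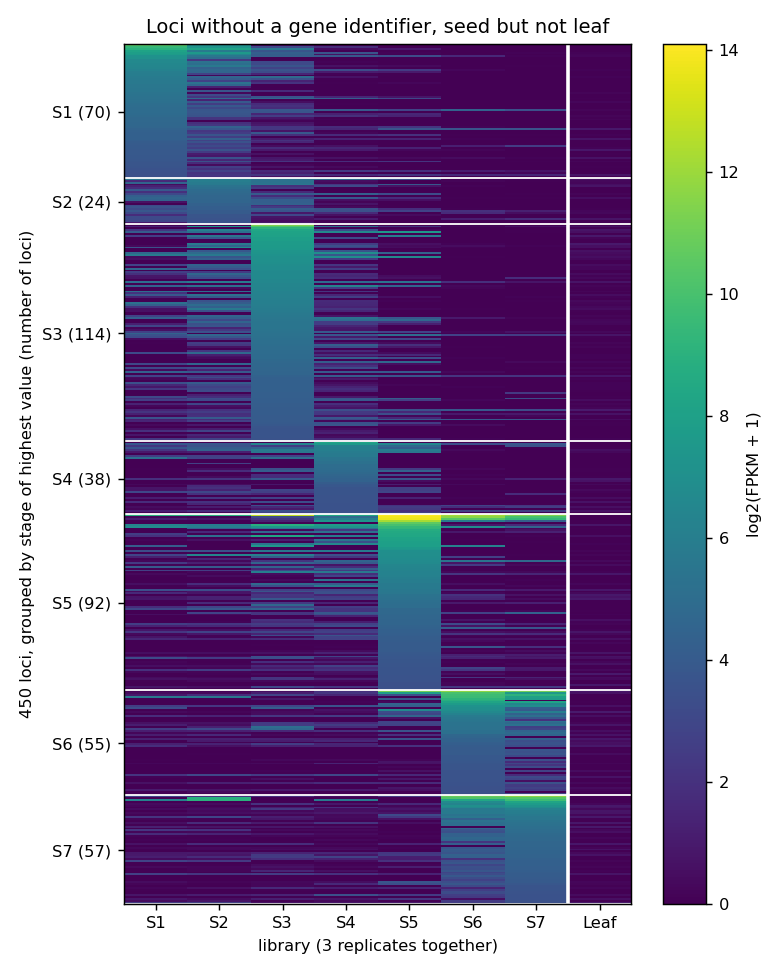
Expression of the 450 loci without a gene identifier in the 7 seed libraries and the leaf library, as log2(FPKM + 1). Each thin line is 1 locus, and loci are grouped by the stage of their highest value (number in parentheses) and ordered by that value. S3 has the largest group (114 loci), loci highest at S6 or S7 mostly have at least 1 FPKM at both, and the leaf column is under 1 FPKM throughout by the rule.

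**Figure D2:**
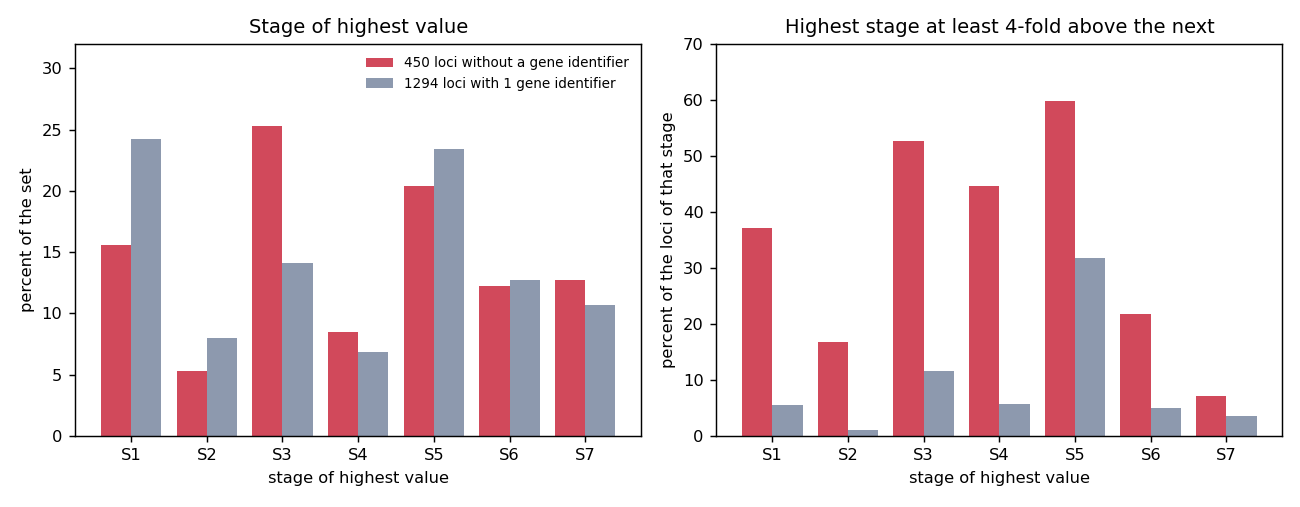
Stage of the highest seed value (left, percent of each set) and percent of the loci of each stage whose highest value was at least 4-fold above the next highest seed stage (right), for the 450 loci without a gene identifier and the 1294 loci with 1 gene identifier within the same limits. At S3 the set holds 25.3% against 14.1%, and the share of restricted loci is higher in the set at each of the 7 stages.

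The loci highest at S1 had ever lower values through the following stages. Their median was 30.7 FPKM at S1, 8.04 FPKM at S2, 1.84 FPKM at S3 and 0.0527 FPKM at S4, and it was 0 from S5 to S7. Of the 70 loci, 64 still had at least 1 FPKM at S2, 40 at S3 and 19 at S4. XLOC_004376 was the highest of them, with 1434 FPKM at S1, 125 FPKM at S2 and 0.234 FPKM at S3, and it was listed at 0 from S4 on and in leaf. XLOC_005631 had 679 FPKM at S1, 155 FPKM at S2, 7.69 FPKM at S3 and 2.42 FPKM at S4, and was listed at 0 in the other libraries. XLOC_009001 was the slowest to decline of these, with 521, 291 and 51.4 FPKM at S1, S2 and S3, then 0.358 FPKM at S4 and 1.01 FPKM at S5, and 0 at S6, S7 and in leaf. All 3 loci thus had their highest values at S1 and S2 and at most 2.42 FPKM from S4 on, and none of the 70 loci was listed above 0 in the S1 library alone.

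S2 was the stage of the highest value for only 24 loci, none of which reached 100 FPKM (10.6 to 70.2 FPKM). XLOC_034490 had 45.4, 70.2, 44.5, 33.0 and 10.5 FPKM from S1 to S5, 0.0222 and 0.111 FPKM at S6 and S7, and 0.539 FPKM in leaf. XLOC_022862 was narrower, with 2.23 FPKM at S1, 64.7 FPKM at S2, 39.4 FPKM at S3 and 0.414 FPKM at S4. XLOC_007042 had 22.6, 58.2 and 41.1 FPKM at S1, S2 and S3 and 0.260 FPKM at S4. Each of these 3 loci was highest at S2 by less than 2-fold over its next stage, and the median of the 24 loci at the neighbouring stages was 7.74 FPKM (S1) and 5.65 FPKM (S3).

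Loci highest at S3 formed the largest group, and most of them were low at the stages around it. From S1 to S4 their medians were 0.448, 4.78, 39.4 and 1.87 FPKM, and from S5 to S7 the median was 0. Of the 114 loci, 68 were listed at 0 at S5, 85 at S6 and 86 at S7. XLOC_019377 illustrates a rise and decline over several stages, with 1.58 FPKM at S1, 176 FPKM at S2, 1191 FPKM at S3, 32.8 FPKM at S4 and 3.40 FPKM at S5, and below 1 FPKM at S6, S7 and in leaf. The other 2 of the 3 highest loci had no such flanks. XLOC_031939 was listed at 2702 FPKM at S3 and XLOC_006968 at 559 FPKM at S3, and both were listed at 0 in each of the other 7 libraries. High loci of S3 thus included both those carried by neighbouring stages and those that were not.

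Few loci were highest at S4, 38 in all, and most of their values were moderate, with a median of 21.3 FPKM. XLOC_014177 had the highest value, 311 FPKM, and was listed at 0 in the other 7 libraries. XLOC_018051 was seen at every seed stage, with 13.6, 13.5, 83.7, 190, 92.2, 9.36 and 13.5 FPKM from S1 to S7, and listed at 0 in leaf. XLOC_014378 had 3.83, 11.4, 4.34, 70.5 and 25.7 FPKM from S1 to S5, was listed at 0 at S6, had 10.3 FPKM at S7 and was listed at 0 in leaf. Loci above 0 in the S4 library alone made up 10 of the 38 (26.3%).

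The highest values of the set were reached at S5, the mid-maturation stage at which seeds fill. Of the 92 loci of this stage, 26 had at least 100 FPKM, and the 4 highest of all 450 loci were among them. XLOC_031862 had 490, 478, 7146, 331, 17588, 4754 and 2713 FPKM from S1 to S7 and was listed at 0 in leaf. It was present throughout seed development, and its S3 and S5 values both exceeded the S4 value between them. XLOC_020865 had 0.138, 0.0445, 7.63 and 27.9 FPKM from S1 to S4, then 14962 FPKM at S5, 3219 FPKM at S6 and 1005 FPKM at S7. XLOC_010883 followed the same course with 1.22, 0.738, 3.56 and 61.5 FPKM from S1 to S4 and 13207, 1311 and 663 FPKM from S5 to S7. Both were listed at 0 in leaf, low in embryogenesis and high from S5 on. XLOC_025907, named after its values were seen, was more confined to S5, with 165 FPKM at S4, 4903 FPKM at S5, 57.0 FPKM at S6 and 17.0 FPKM at S7. XLOC_032504, also named after its values were seen, had 77.9, 59.0, 450, 221 and 1034 FPKM from S1 to S5 and then 0.908 and 2.24 FPKM at S6 and S7, so that it was present through embryogenesis and nearly gone after S5.

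Sorting by the highest stage itself sets the loci of S5 and those of S3 apart, and their values at the other of these stages were as follows. Of the 92 loci highest at S5, 53 (57.6%) had at least 1 FPKM at S3, 19 (20.7%) at least 10 FPKM, and 24 (26.1%) were listed at 0 there. In the 303 annotated loci highest at S5 these shares were 76.6%, 32% and 2.64%. Of the 114 loci highest at S3, 30 (26.3%) had at least 1 FPKM at S5, 14 (12.3%) at least 10 FPKM, and 68 (59.6%) were listed at 0 there. In the 183 annotated loci highest at S3 these shares were 68.3%, 27.9% and 14.2%. After S5 the median of the 92 loci was 0.0798 FPKM at S6 and 0.0347 FPKM at S7, so that the continued high values of XLOC_031862, XLOC_020865 and XLOC_010883 at S6 and S7 were not typical of their group.

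The 3 highest loci made up most of what the set contributed at S5. The 450 loci summed to 64410 FPKM at S5, which is 3.05% of the sum over all loci, and 71% of it came from XLOC_031862, XLOC_020865 and XLOC_010883. Without these 3, the set summed to 18654 FPKM at S5 and 14802 FPKM at S3. In the other seed libraries the set held between 0.566% (S4) and 2.11% (S3) of the summed FPKM, and in leaf, by the rule, 0.00655%. Sums of FPKM are not shares of the sequenced fragments, since each value is scaled by the length of its locus.

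For these 3 loci, the annotated loci with the most similar profile over the 8 libraries were found among 11609 loci with 1 gene identifier and a seed value of at least 10 FPKM. The measure was the Pearson correlation of log2(FPKM + 1) over the 8 libraries, given as a description without a test. Ca_14914 was the nearest to XLOC_020865 (r = 0.992) and the third nearest to XLOC_010883 (r = 0.989), with 4.17 FPKM at S4, 39.6 FPKM at S5, 26.5 FPKM at S6, 13.4 FPKM at S7 and 0.245 FPKM in leaf. Ca_01856 came next for XLOC_020865 (r = 0.988), with 72.6 FPKM at S4 and 7976, 6502 and 1103 FPKM from S5 to S7, and Ca_15539 followed (r = 0.985). For XLOC_010883 the nearest was Ca_13117 (r = 0.991), with 38.3 FPKM at S5, and then Ca_26950 (r = 0.990), with 34.9 FPKM at S4 and 10225, 2532 and 375 FPKM from S5 to S7. XLOC_031862 was nearest to Ca_10013 (r = 0.980), Ca_07961 (r = 0.978) and Ca_13568 (r = 0.973), all of which had over 1 FPKM in leaf. The correlation compares the course over the libraries and not the level. Ca_10013 reached no more than 20.7 FPKM, at S3, and had 18.3 FPKM at S5, where XLOC_031862 was highest. Ca_14914 and Ca_13117 were likewise far lower at S5 than XLOC_020865 and XLOC_010883, whereas Ca_01856 and Ca_26950 reached 7976 and 10225 FPKM.

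The loci highest at S6 and those highest at S7 mostly had at least 1 FPKM at both stages. Of the 55 loci highest at S6, 47 had at least 1 FPKM at S7, and of the 57 highest at S7, 54 had at least 1 FPKM at S6. The S6 loci had medians of 18.6 FPKM at S6 and 9.57 FPKM at S7, and the S7 loci of 12.7 FPKM at S6 and 23.0 FPKM at S7. Before S6 the median of both was under 0.3 FPKM at every stage. XLOC_000155 came up earlier, with 2.94 FPKM at S4, 2189 FPKM at S5, 3365 FPKM at S6 and 2206 FPKM at S7, and had 0.802 FPKM in leaf. XLOC_013501 had 231 FPKM at S5, 1038 FPKM at S6, 189 FPKM at S7 and 0.575 FPKM in leaf. XLOC_003913 had 10.3 FPKM at S5, 846 FPKM at S6 and 533 FPKM at S7, and was listed at 0 in leaf. These 3 loci therefore differed in how high they already stood at S5.

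At S7, XLOC_031210 was the highest locus, with 0.438 to 6.40 FPKM from S1 to S5, 1854 FPKM at S6, 3170 FPKM at S7 and 0.0256 FPKM in leaf. The next 2 had high values at early stages as well, which XLOC_031210 did not. XLOC_029846 had 467 FPKM at S2, 1237 FPKM at S6 and 1333 FPKM at S7, and was listed at 0 at S1, S3, S4 and S5 and in leaf. XLOC_014118 had 79.5 FPKM at S1, 523 FPKM at S2, 53.7 FPKM at S4, 319 FPKM at S6 and 799 FPKM at S7, and was listed at 0 at S3 and S5 and in leaf. Their values thus came and went between stages.

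**Figure D3:**
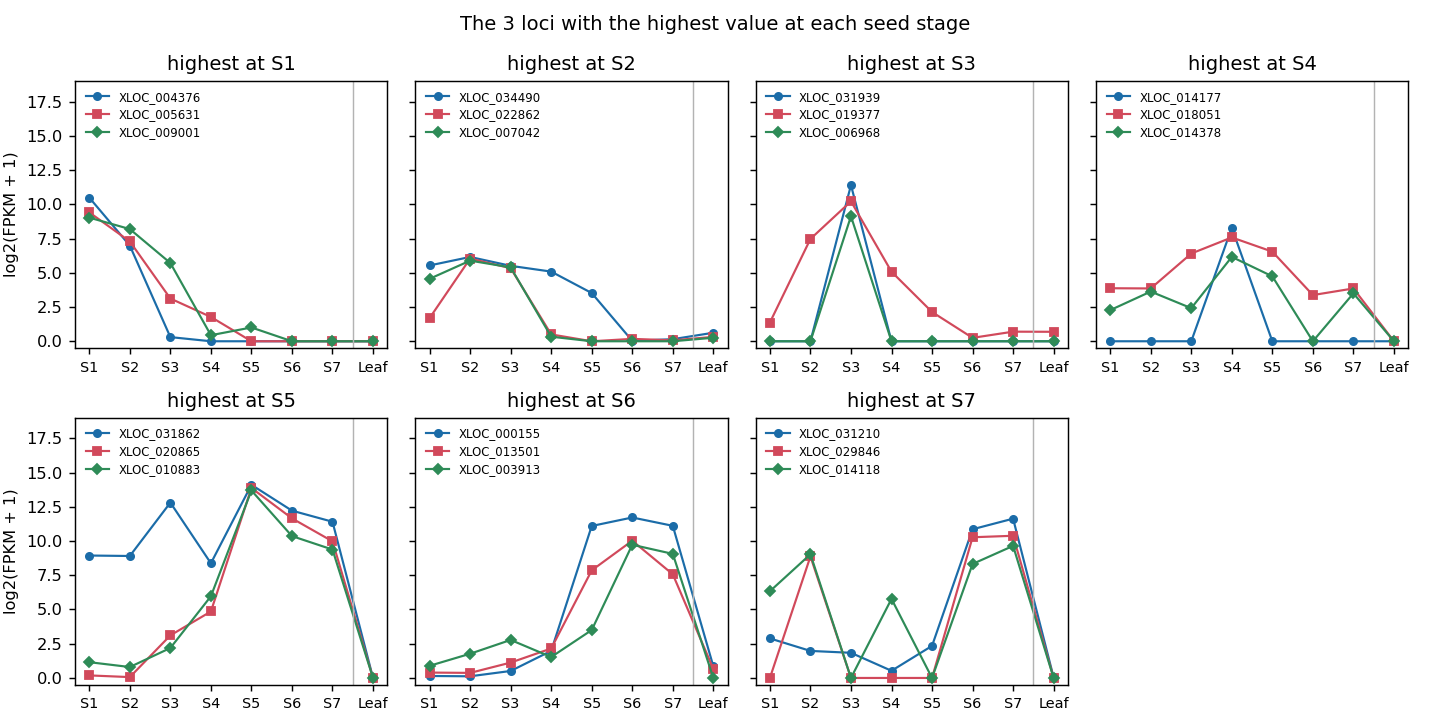
Values of the 3 loci with the highest value at each seed stage, as log2(FPKM + 1), in the seed libraries S1 to S7 and in leaf; each panel holds the loci highest at 1 stage and each point is 1 deposited value for 3 replicates together. XLOC_031939, XLOC_006968 and XLOC_014177 are above 0 at 1 stage only, whereas XLOC_031862 is above 300 FPKM at every seed stage.

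Stage by stage, the number of loci at least 2-fold higher or lower than at the stage before was counted after adding 1 FPKM to every value, so that folds of low loci come out too small. Since the set was chosen for a high value at some seed stage, more of it than of all loci must pass this fold at some step, and the shares of all loci are given as background. At S2, 85 of the 450 loci were higher and 66 lower than at S1 (background 4.11% and 2.37%). At S3, 164 were higher and 76 lower than at S2 (background 6.66% and 6.09%). At S4, 156 were lower and 56 higher than at S3 (background 3.12% and 2.77%). These are the counts on either side of S3, where the set had 36.4% higher on entry and 34.7% lower on leaving. In the annotated loci within the same limits, 24.6% were higher at S3 than at S2 and 12.3% lower at S4 than at S3. The shares of the set were also above those of the annotated loci at S2 over S1, with 18.9% against 13.4% higher and 14.7% against 12.1% lower.

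In the second part of development, 114 loci were higher and 97 lower at S5 than at S4 (background 7.67% and 7.75%). At S6, 149 were lower and 105 higher than at S5 (background 15.9% and 16.6%). At S7, 26 were higher and 42 lower than at S6 (background 1.68% and 3.31%), the smallest numbers of the 6 steps. Here the set was mostly below the annotated loci within the same limits. At S5 over S4, 25.3% of the set against 30.9% of the annotated loci were higher, and 21.6% against 26.1% lower. At S6 over S5, 33.1% against 48.7% were lower and 23.3% against 20.9% higher. At S7 over S6, 9.33% against 12.9% were lower and 5.78% against 3.63% higher. The step from S4 to S5 depends on how the libraries are scaled. When every library was given the same sum, 79 loci were higher and 131 lower at S5 than at S4, so that higher loci made up 37.6% of the loci past the fold rather than 54%. Under that scaling the median change over the 11706 loci with at least 1 FPKM in all libraries was -1.23 for S5 over S4, against 0.03 as deposited. For S6 over S5 this median was 0.44 as deposited.

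The profiles of the set were sharper than those of annotated loci within the same limits. A highest seed value at least 4-fold above the next highest stage, on the FPKM + 1 scale, was found in 178 of the 450 loci (39.6%), against 153 of the 1294 annotated loci (11.8%). Over all loci with a seed value of at least 10 FPKM the share was 3.87%. Among the 450 loci it was 52.6% for those highest at S3 and 59.8% for those highest at S5, but 7.02% for those highest at S7. In the annotated loci within the same limits these shares were 11.5%, 31.7% and 3.6%. The 52 loci of the set listed above 0 in 1 library only pass this fold by construction. They include 22 of those highest at S3 and 13 of those highest at S5. Without the 52 loci, 126 of 398 passed it. At least 1 FPKM was present at a median of 3 of the 7 seed stages in the set and of 5 in the annotated loci. Only 20 of the 450 loci (4.44%) had at least 1 FPKM at all 7 stages, against 242 of the 1294 annotated loci (18.7%).

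Many loci stayed below 1 FPKM throughout 1 part of development, taken here as S1 to S4 or S5 to S7. From S5 to S7, 170 of the 450 loci (37.8%) were below 1 FPKM at every stage, against 199 of the annotated loci (15.4%). From S1 to S4, 95 of the 450 loci (21.1%) were below 1 FPKM at every stage, against 130 of the annotated loci (10%). The 52 loci of the set above 0 in 1 library only pass 1 of these counts by construction. None of the annotated loci was of that kind. Only 2 of the 450 loci had at least 10 FPKM at all 7 stages, and these were XLOC_031862 and XLOC_028728. XLOC_028728 had 113, 66.7, 159, 148, 661, 116 and 22.1 FPKM from S1 to S7 and was listed at 0 in leaf. XLOC_018051 came next by its lowest seed value of 9.36 FPKM.

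Of the 450 loci, 52 (11.6%) were listed above 0 in 1 library only and 95 (21.1%) in all 8. None of the 1294 annotated loci within the same limits was seen in 1 library only, and 812 (62.8%) were above 0 in all 8. Over all loci with a seed value of at least 10 FPKM, 0.367% were above 0 in 1 library, and all of them belonged to the set. Such a locus is listed at 0 in leaf, so that it meets the leaf limit by construction. Without the limits, 489 of the 7268 loci without a gene identifier were above 0 in 1 library only. The same held for 935 of the 26305 loci with 1 gene identifier. In FPKM the 52 loci of the set were not low, with a median of 46.1 FPKM and a highest value of 2702 FPKM. Of them, 16 had at least 100 FPKM. Neither their lengths nor their numbers of fragments are known, so that a high FPKM need not mean many fragments. The other 398 loci had a median highest value of 26.3 FPKM. Of the 52, 22 were seen at S3, 13 at S5, 10 at S4, 6 at S6, 1 at S7 and none at S1 or S2. XLOC_031939 at S3, XLOC_018283 at S5 (1548 FPKM) and XLOC_006968 at S3 were the highest.

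**Figure D4:**
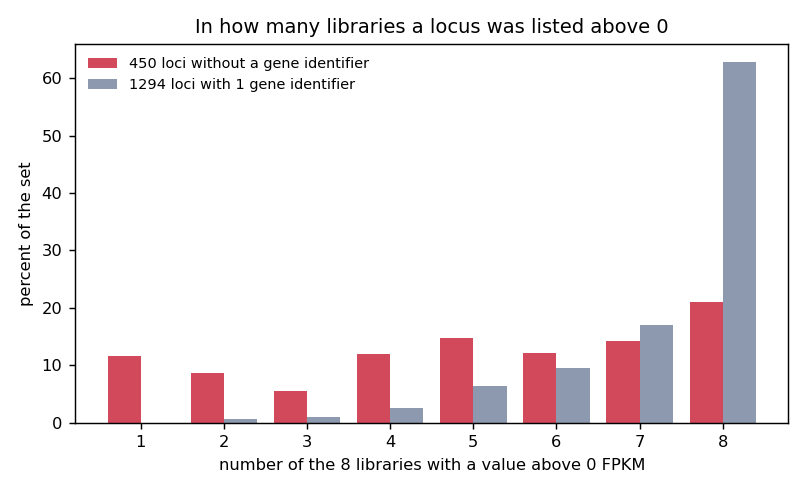
Number of the 8 libraries in which a locus was listed above 0 FPKM, as percent of the 450 loci without a gene identifier and of the 1294 loci with 1 gene identifier within the same limits. The set has 11.6% of its loci in 1 library and 21.1% in all 8, against 0% and 62.8% of the annotated loci.

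Where a locus was seen at more than 1 seed stage, the 2 highest stages were mostly neighbours. This held for 318 of 397 loci (80.1%), against 994 of 1294 annotated loci (76.8%). In 35 of the 450 loci (7.78%) the 2 highest stages were S3 and S5, with S4 lower than both, against 108 of the annotated loci (8.35%). A fall at S4 between S3 and S5 values of at least 10 FPKM, of at least 2-fold on both sides, was found in 13 of the 450 loci (2.89%), against 20 of the annotated loci (1.55%). XLOC_033732 was listed at 183, 0, 247 and 77.0 FPKM from S3 to S6, after 16.0 FPKM at S1. XLOC_034201 was listed at 46.1, 264, 0 and 58.5 FPKM from S2 to S5. XLOC_014421 was listed at 24.8, 0 and 32.5 FPKM from S3 to S5 and at 0 in the other 5 libraries. In XLOC_015053, named after its values were seen, S4 was above 0, with 311 FPKM at S3, 52.7 FPKM at S4 and 336 FPKM at S5.

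A value of 0 between stages of at least 10 FPKM occurred in 11 of the 450 loci (2.44%), and in 11 of the annotated loci (0.85%). XLOC_029846 and XLOC_014118, described above, were the highest of them. XLOC_022997, named after its values were seen, had 51.9 FPKM at S1, 49.6 FPKM at S2, 770 FPKM at S6 and 257 FPKM at S7, and was listed at 0 at S3, S4, S5 and in leaf. Some values were also exactly the same for different loci. XLOC_031658 and XLOC_031913 were both listed at 31.588 FPKM at S4 and at 0 elsewhere, and XLOC_028718 and XLOC_030549 both at 37.5669 FPKM at S4. The S4 value of XLOC_014118 (53.6696 FPKM) was likewise shared with XLOC_033735, a locus outside the set. The number of fragments behind such values is unknown, and XLOC_031658, XLOC_031913, XLOC_028718, XLOC_030549 and XLOC_033735 are named because their values coincide.

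The identifier numbers were the only positional information used, and what they order is not stated in the sources used here. They ran up to 35228, and 27960 numbers in between were not used by loci without a gene identifier, close to the 27966 loci that carry gene identifiers. Loci without a gene identifier filled 8 long unbroken runs of 160 to 586 numbers, which held 3372 (46.4%) of the 7268 loci, and the next longest run had 46 numbers. Of the 450 loci, 161 (35.8%) were in these 8 runs, or 4.77% of the loci there, whereas outside them 7.42% of the loci met the rule. The loci in the runs had a similar median highest value, 29.0 FPKM against 26.9 FPKM outside. They were more often above 0 in 1 library only, with 35 of 161 (21.7%) against 17 of 289 (5.88%) outside, and less often above 0 in all 8, with 14.9% against 24.6%. A highest value 4-fold above the next stage was found in 74 of the 161 loci in the runs (46%) and in 104 of the 289 loci outside (36%). These counts include the loci above 0 in 1 library only, which pass by construction. Whether a run is a stretch of the genome or a class of loci that the assembly program numbered together is not known, so that consecutive numbers need not be neighbours on a chromosome. What these runs have to do with the loci seen in 1 library was not tested. The highest values of the set (XLOC_031862, XLOC_020865 and XLOC_010883) lay outside the runs.

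**Figure D5:**
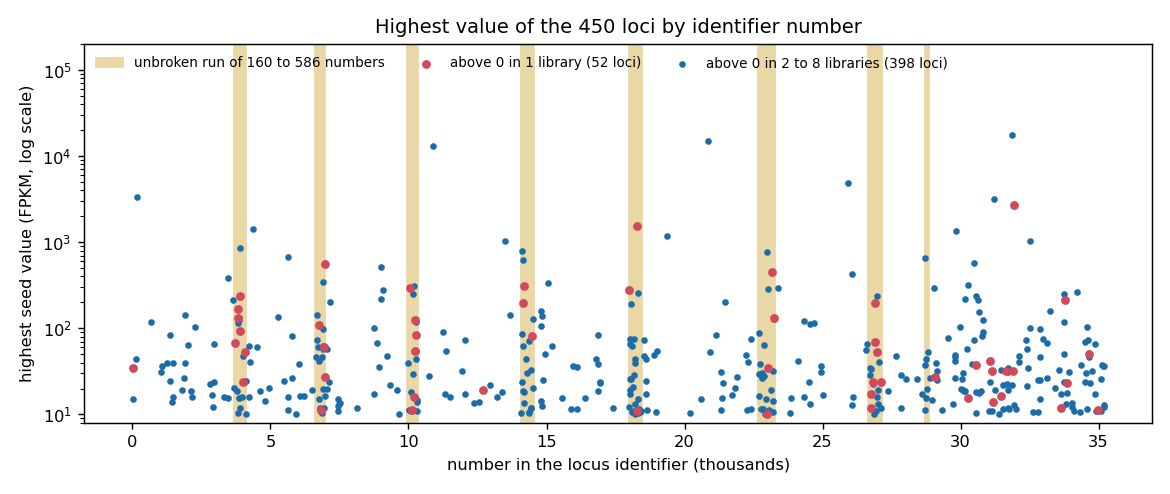
Highest seed value (FPKM, log scale) of the 450 loci against the number in their identifier. Shaded bands are the 8 unbroken runs of 160 to 586 numbers without a gene identifier; large points are the 52 loci above 0 in 1 library, of which 35 lie in the bands, and small points are the other 398 loci.

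Among the 450 loci there were 38 pairs with consecutive numbers, and in 15 of them (39.5%) both loci were highest at the same stage. Over all 101025 pairs of the 450 loci the share was 16.9%. The correlation of the 2 loci of a pair over the 7 seed stages had a median of 0.72, as a description across stages. It ranged from -0.93 to 0.995, and no correlation over all pairs was set beside it. Runs of 3 consecutive numbers were the longest, and there were 4 of them. In XLOC_029808, XLOC_029809 and XLOC_029810 all loci were highest at S1, with 26.6, 41.8 and 46.6 FPKM there and 3.28, 0.239 and 1.55 FPKM at S2. XLOC_006902, XLOC_006903 and XLOC_006904 were likewise highest at S1, with 62.9, 19.9 and 57.9 FPKM, and only XLOC_006904 kept a high value at S3 (28.6 FPKM).

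The other 2 runs did not share a stage. XLOC_014135 and XLOC_014137 were highest at S5, with 629 and 196 FPKM, while XLOC_014136 between them was highest at S3, with 62.0 FPKM, and listed at 0 at S5. XLOC_026970 was highest at S1, with 234 FPKM, and its neighbours XLOC_026969 and XLOC_026971 were highest at S5, with 53.0 and 15.8 FPKM. Of the 15 pairs that shared a stage, 10 were highest at S1, 2 at S3, 2 at S5 and 1 at S7. Consecutive numbers may be parts of 1 transcript or separate loci, and the values do not tell which.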

How the data were processed

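RNA was measured in 24 samples of cultivar Himchana 1 (7 seed stages and leaf, 3 replicates each). Per the design text of the series, reads passed quality filtering by NGS QC Toolkit, were aligned with TopHat and were quantified with Cufflinks. The values the authors deposited are FPKM, 1 per locus for the replicates of a stage together. The versions of these tools used for the RNA reads, the genome version for them, and how replicates were merged and libraries scaled are not given in the sources used here. The 4 pairs of libraries compared had no common step among loci below 0.1 FPKM (the commonest ratio held at most 1.23% of them), so depth and counting precision are unknown.

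Scripts applied the limits (leaf under 1, seed at least 10 FPKM), counted stages, and used a pseudocount of 1 for folds. The loci and lists were chosen with earlier results of these data known. Named loci are the 3 highest of each stage, those nearest to each limit, the 3 broadest, the 3 highest of those at 0 in the most libraries, the 3 with the deepest S4 fall, the longest runs of consecutive identifiers and the 3 nearest annotated loci of the 3 highest. Lists of cell cycle, differentiation, grain filling and desiccation genes came from the supplementary data of the study, without its values. Any locus outside this rule is said to be named after its values were seen. The counting was tested on simulated data. Alternatives were other limits, pseudocounts and scalings. Python 3.11.15, numpy 2.4.6 and pandas 2.3.3 were used.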

Additional observations from a re-analysis of the deposited data

How the results depend on the processing

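No paired analysis was possible because each stage has 1 value for its 3 replicates, and for the same reason neither a replicate block nor leaving out single replicates could be tried. Of 82 alternative values, 64 stayed within 1.5 times the reported count. The number of loci, 450, was 283 with a leaf limit of 0.1 FPKM, 209 with leaf listed at 0, 719 with a seed limit of 5 FPKM and 279 with 20 FPKM. Rescaling gave 382 (same sum), 441 (upper quartile of the values above 0) and 440 (median ratio) loci, some of them from outside the set. Of the 450, 356, 414 and 437 still met the limits, and 411, 434 and 445 kept their stage. With a highest value of at least 20 FPKM, the loci were 45 at S1, 13 at S2, 21 at S4, 60 at S5, 27 at S6 and 33 at S7. Outside the long runs of identifiers, an alternative added after seeing the data, 289 loci were left, with 18 at S4, 54 at S5 and 33 at S6, and 104 of them were restricted 4-fold to a stage. Fewer loci enter these counts, and why each of them fell was not tested. At 2-fold in place of 4-fold, 279 loci were restricted to a stage. Without loci seen in 1 library, also added later, 126 of 398 were. With a pseudocount of 0.1, 40 loci were higher and 74 lower at S7 than at S6. Consecutive identifiers gave 38 pairs, and numbers differing by at most 2 gave 53. Values near a limit are of unknown precision, since the depth is unknown.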
